A study of Homo sapiens with 12 samples.

Results

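ATF3 and 9 genes whose proteins make up or join the transcription factor AP-1 were followed across 12 bulk RNA libraries of human keratinocytes. The 10 genes, ATF3, ATF2, JUN, JUNB, JUND, FOS, FOSB, FOSL1, FOSL2 and MAFF, were taken by name from the 58735 genes of the deposited count table, and all 10 passed the filter on low counts. The cells were N/TERT-2G, a line of immortalised skin keratinocytes. Wells of 6-well plates were transfected with 100 pmol of siRNA and 5 μl of Lipofectamine 2000, and the medium was changed after 6 h. The 4 groups of 3 libraries received ATF3 siRNA, APOE siRNA, CXCL14 siRNA or a negative control siRNA, and poly-A RNA was sequenced. The siRNA sequences and the time of harvest are not given in the sources used here. In bulk RNA, fewer cells with a transcript and less of it per cell cannot be told apart, and protein was not measured.

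AP-1 is a pair of proteins held together by a leucine zipper, with a basic region that grips DNA. JUN proteins pair with each other or with FOS and ATF proteins, FOS proteins need a partner from another family, and small MAF proteins pair among themselves, with FOS and with CNC factors. The pair decides which DNA element is favoured and whether a gene is activated or repressed. In the epidermis AP-1 takes part in the stress and growth factor response and in the switch from basal to differentiating keratinocyte, and the genes of matrix proteases and of the cornified envelope are among its known targets.

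The sequences that bear on these genes are the AP-1 and CRE-type elements in their own promoters, since several AP-1 genes are known to be targets of AP-1 or ATF proteins. RefSeq promoters (GRCh38.p14) were at hand for 8 of the 10 genes, all but ATF2 and FOSL1, and the 250 bases before each start were searched on both strands. The element TGACNTCA, which cannot coincide with TGACTCA, occurred upstream of JUN, ATF3, JUND and MAFF and in 6.87% of 35116 promoters. The windows are shown along the strand of the gene with the element in capitals. For ATF3, at chr1:212565273-212565302, the element is 123 bases upstream of one of its 2 RefSeq starts. In JUN, at chr1:58784096-58784125 on the minus strand, it is 67 bases upstream of the RefSeq start at 58784047. In JUND, at chr19:18281804-18281833 on the minus strand, it is 200 bases upstream. In MAFF, at chr22:38201929-38201958, it is 54 bases upstream of one of its 2 starts. The windows of JUN and MAFF lie inside the gene coordinates of the count table, given below.
ATF3: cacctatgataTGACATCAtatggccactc
JUN: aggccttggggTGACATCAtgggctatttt
JUND: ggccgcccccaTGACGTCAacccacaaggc
MAFF: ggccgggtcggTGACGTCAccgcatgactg
JUN and ATF3 share the form TGACATCA, and JUND and MAFF the form TGACGTCA. The classical AP-1 element TGACTCA lies in 4.2% of the promoters and the serum response element in 1.16%. The 250 bases searched before the starts of the 8 genes hold neither. Bases farther upstream were not searched, so these genes may hold either element there. A match is a description of the letters only. With ATF3 siRNA, MAFF rose by 0.25 on the log2 scale (edgeR adjusted p = 0.031, called by 9 of 16 alternative fits), while JUN and JUND did not pass the test. The fall of ATF3 there was set by its own siRNA and does not bear on the element. Whether genes with the element respond alike was not tested.

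Libraries held 16225691 to 22246755 counts. Levels of a gene are counts scaled by depth and TMM (CPM), and 3 counts, the limit that a count of 0 allows, correspond to 0.135 to 0.185 CPM. Such limits cover counting error only. The other siRNAs also had fewer counts of their targets: APOE had 10 counts over the 3 APOE siRNA libraries against 156 in the control libraries, and CXCL14 had 2 over the CXCL14 siRNA libraries against 24. Keratinocyte markers summed to 16843 to 34321 CPM per library, lowest in the CXCL14 siRNA group. The 5 immune markers summed to 0 to 0.370 CPM, and the 4 melanocyte markers to 1.04 to 2.48 CPM. The 4 endothelial markers summed to 0.308 to 1.64 CPM, highest with CXCL14 siRNA. Of these, the immune markers PTPRC, CD3E and LYZ and the melanocyte enzyme TYR were at 0 in every library. The 6 fibroblast markers summed to 72.2 to 85.7 CPM with APOE siRNA, against 25.7 to 34.0 CPM with control siRNA. They summed to 31.8 to 39.2 CPM with ATF3 siRNA and to 15.6 to 18.7 CPM with CXCL14 siRNA. Their part in the results was not tested. The labels do not say whether the 3 libraries of a group came from separate cultures, so p-values reflect only how far these libraries spread, which may be technical. Unless another pair is named, changes are over the control, as edgeR log2 fold changes ± SE. Genes called risen or fallen had an adjusted p under 0.05 among 14920 tested, and all 3 comparisons with the control use the same control libraries.

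ATF3 (ENSG00000162772, chr1:212565334-212620777, plus strand, hg38) is a stress-induced factor that mostly represses as a homodimer and pairs with JUN proteins. It had 12, 12.5 and 11.5 CPM in the ATF3 siRNA libraries, against 43.0, 43.0 and 40.5 CPM in the control libraries. The groups lie far apart, and 28.5% of the control level remained (-1.81 ± 0.08, edgeR adjusted p = 1.37e-09). The exact two-sided permutation p was 0.1, the smallest that 3 against 3 libraries can give. In the CXCL14 siRNA libraries ATF3 had 64.1, 71.6 and 69.3 CPM. All 3 stood above every control library, and ATF3 rose 1.62-fold (0.70 ± 0.07, adjusted p = 4.96e-07). With APOE siRNA it had 42.4, 38.8 and 44.7 CPM, a range that overlaps the control, and the difference of -0.01 (95% interval -0.16 to 0.15) did not pass (adjusted p = 0.932). ATF3 was thus 5.68-fold lower with ATF3 siRNA than with CXCL14 siRNA (-2.51 ± 0.08, adjusted p = 2.01e-12).

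**Figure D1:**
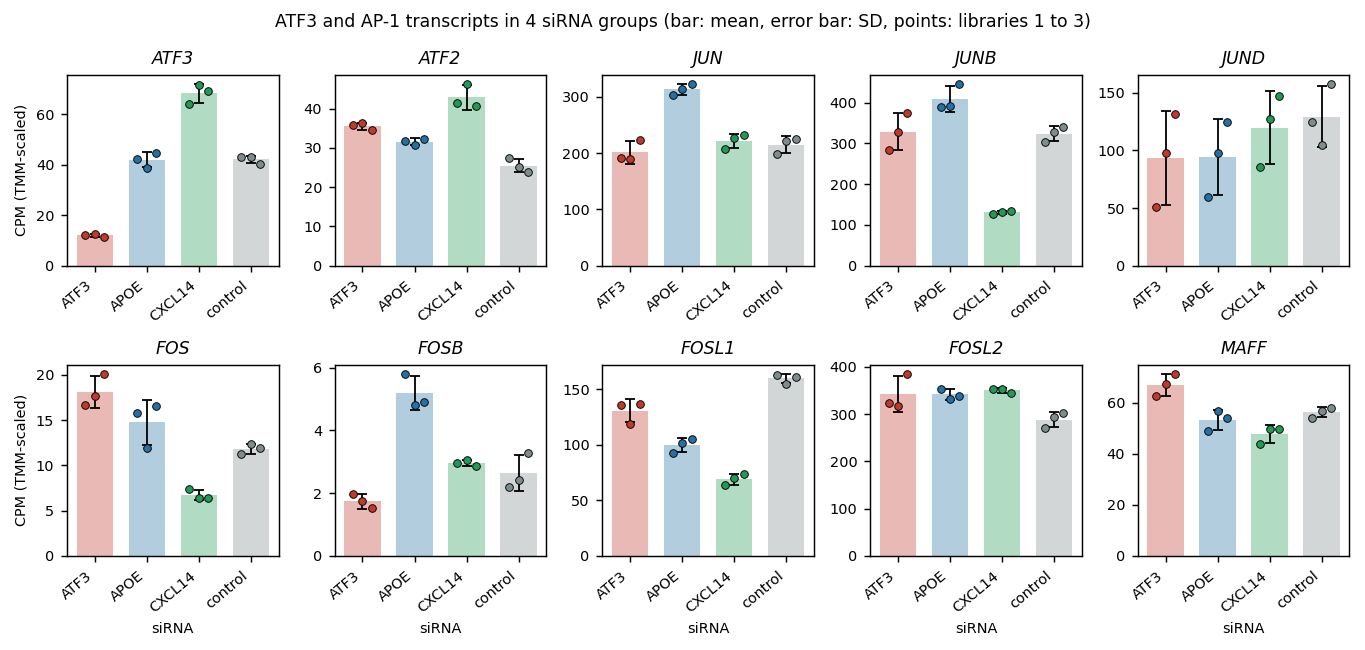
TMM-scaled CPM of the 10 genes with ATF3, APOE, CXCL14 and control siRNA, where bars are means of 3 libraries, whiskers are 1 SD and points are single libraries. For ATF3 the mean is 12 CPM with the siRNA against it and 68.3 CPM with CXCL14 siRNA, against 42.2 CPM with control siRNA, and JUNB and FOSL1 are lowest with CXCL14 siRNA.

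With ATF3 siRNA 6 of the 10 genes passed the test: ATF2, FOS, FOSL2 and MAFF rose, and ATF3 itself and FOSL1 fell. In the same comparison 20.4% of all tested genes passed. ATF3 is the target of this siRNA, so its fall was set by the design. It is part of the 6, and of the other ATF3 siRNA values for the 10 genes below. The calls of FOSL1, FOSL2 and MAFF were lost under some alternatives. With APOE siRNA 7 of 10 passed, where 44.8% of all tested genes did: ATF2, JUN, JUNB, FOS, FOSB and FOSL2 rose and FOSL1 fell. With CXCL14 siRNA 7 of 10 passed as well, where 55.8% of all tested genes did: ATF3, ATF2 and FOSL2 rose, and JUNB, FOS, FOSL1 and MAFF fell. With APOE and CXCL14 siRNA a large share of the transcriptome passed, so that counts of 7 in 10 say little about these genes in particular. The CPM of the groups did not overlap for 7 of 10 genes with ATF3 siRNA (35.2% of all tested genes), 6 with APOE siRNA (54.4%) and 7 with CXCL14 siRNA (62.1%). The median size of the change was 0.38 for the 10 genes and 0.19 for all tested genes with ATF3 siRNA, 0.33 for the 10 and 0.30 for all with APOE siRNA, and 0.49 for the 10 and 0.39 for all with CXCL14 siRNA. Without control library 1, 1916 genes passed with ATF3 siRNA in place of 3041, and 5 of the 10.

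**Figure D2:**
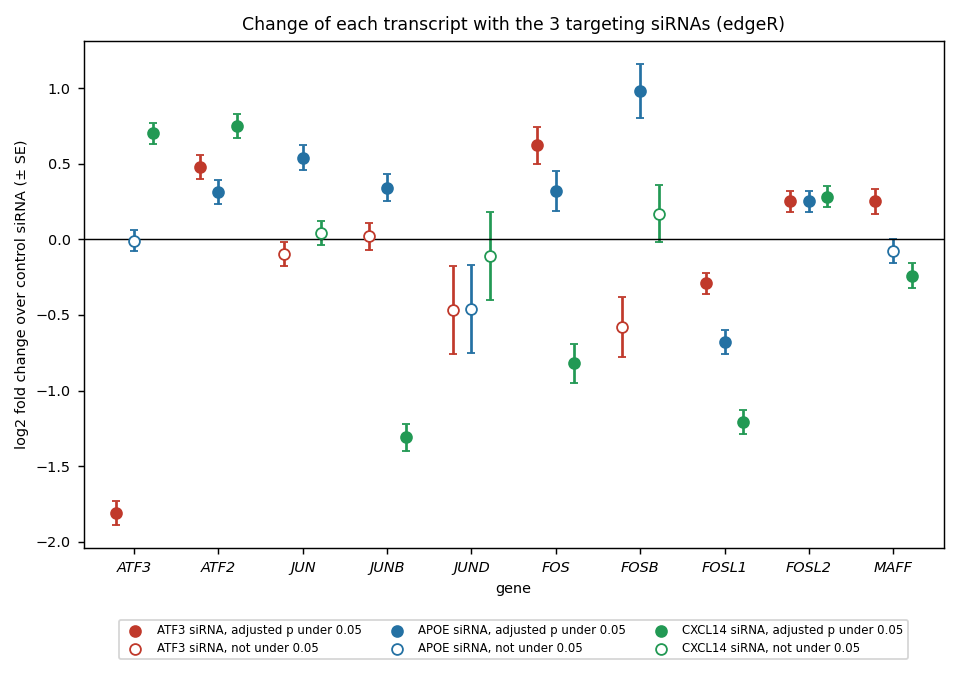
Log2 fold change over control siRNA (± SE, edgeR, n = 3 libraries per group) of the 10 genes with ATF3, APOE and CXCL14 siRNA. Filled points have an adjusted p under 0.05. ATF2 and FOSL2 lie above 0 and FOSL1 below 0 with all 3 siRNAs, and FOS and MAFF lie above 0 with ATF3 siRNA and below 0 with CXCL14 siRNA.

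ATF2 (ENSG00000115966, chr2:175072250-175168382, minus strand) is a factor present in resting cells that is activated by JNK and p38 phosphorylation and pairs with JUN. It had 35.8, 36.3 and 34.6 CPM with ATF3 siRNA, 31.8, 30.7 and 32.3 CPM with APOE siRNA, and 41.5, 46.4 and 40.7 CPM with CXCL14 siRNA, against 27.4, 25.1 and 24 CPM with control siRNA. Every library with a targeting siRNA stood above every control library. The rise was 0.48 ± 0.08 with ATF3 siRNA (adjusted p = 0.000361), 0.31 ± 0.08 with APOE siRNA (0.00381) and 0.75 ± 0.08 with CXCL14 siRNA (3.80e-07), and it passed under all 16 alternatives in each. The 3 comparisons share their control libraries. ATF2 was lower with ATF3 siRNA than with CXCL14 siRNA (-0.27 ± 0.07, adjusted p = 0.00574), and did not pass between ATF3 and APOE siRNA (0.17, 95% interval 0.01 to 0.33, adjusted p = 0.0832).

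Of the JUN family, JUN (ENSG00000177606, chr1:58780788-58784327, minus strand), the strongest activator of the family, rose with APOE siRNA and did not pass with the others. It had 303, 315 and 323 CPM with APOE siRNA, against 198, 222 and 226 CPM with control siRNA. The groups do not overlap, and the rise was 1.46-fold (0.54 ± 0.08, edgeR adjusted p = 2.35e-05). JUN had 191, 189 and 224 CPM with ATF3 siRNA (-0.10, 95% interval -0.26 to 0.06, adjusted p = 0.399) and 208, 227 and 232 CPM with CXCL14 siRNA (0.04, -0.12 to 0.20, adjusted p = 0.639), both overlapping the control.

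JUNB (ENSG00000171223, chr19:12791496-12793315, plus strand), which can hold back JUN and is a regulator of epidermal homeostasis, had the largest change of the family. It had 128, 131 and 134 CPM with CXCL14 siRNA, against 303, 329 and 341 CPM with control siRNA. The highest CXCL14 siRNA library is well below the lowest control library, and 40.4% of the control level remained (-1.31 ± 0.09, adjusted p = 3.93e-09). With APOE siRNA JUNB rose to 389, 393 and 447 CPM, above every control library (0.34 ± 0.09, adjusted p = 0.00495). With ATF3 siRNA it had 284, 329 and 374 CPM, on both sides of the control range, and did not pass (0.02, 95% interval -0.17 to 0.20, adjusted p = 0.907). HOOK2 overlaps JUNB on the opposite strand with 9.20% as many counts, and whether counting used strand is not given. HOOK2 rose with ATF3 siRNA (0.65 ± 0.10, adjusted p = 0.000276) and stood at 0.03 ± 0.10 with CXCL14 siRNA (adjusted p = 0.798), where JUNB fell.

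JUND (ENSG00000130522, chr19:18279760-18281622, minus strand), the JUN protein of resting cells, varied more between libraries of a group than nearly all genes. It had 51.3, 97.4 and 132 CPM with ATF3 siRNA, 59.8, 97.6 and 125 CPM with APOE siRNA, and 85.6, 127 and 147 CPM with CXCL14 siRNA, against 125, 105 and 158 CPM with control siRNA. All groups overlap. Its pooled SD within groups was 0.506 on the log2 scale, larger than that of 99.6% of 10158 coding genes that averaged 5 CPM or more and had a transcript sequence, whose median was 0.108. JUND did not pass in any of the 6 comparisons, and with ATF3 siRNA its difference of -0.47 had a 95% interval of -1.09 to 0.14 (adjusted p = 0.28; 4.41e-08 to 0.674 over the alternatives). In 4 of the 6 comparisons, ATF3 and APOE siRNA over control and each over CXCL14 siRNA, 2 of 16 alternatives called JUND lower, the fit with no filter and the fit with a replicate block. Its longest transcript has 69.7% G and C, more than 99.6% of coding genes. The 633 coding genes richest in G and C, with at least 64.1%, also moved by library: their median deviation from the group mean was -0.16, -0.01 and 0.18 in ATF3 siRNA libraries 1, 2 and 3, while that of JUND was -0.76, 0.16 and 0.60. In every group the library numbered 3 was highest in both measures, and the library numbered 1 was lowest in both except with control siRNA, where JUND was lowest in library 2. The part of base composition in the spread of JUND was not tested. JUNB, at 64.9% G and C, spread by 0.123.

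**Figure D3:**
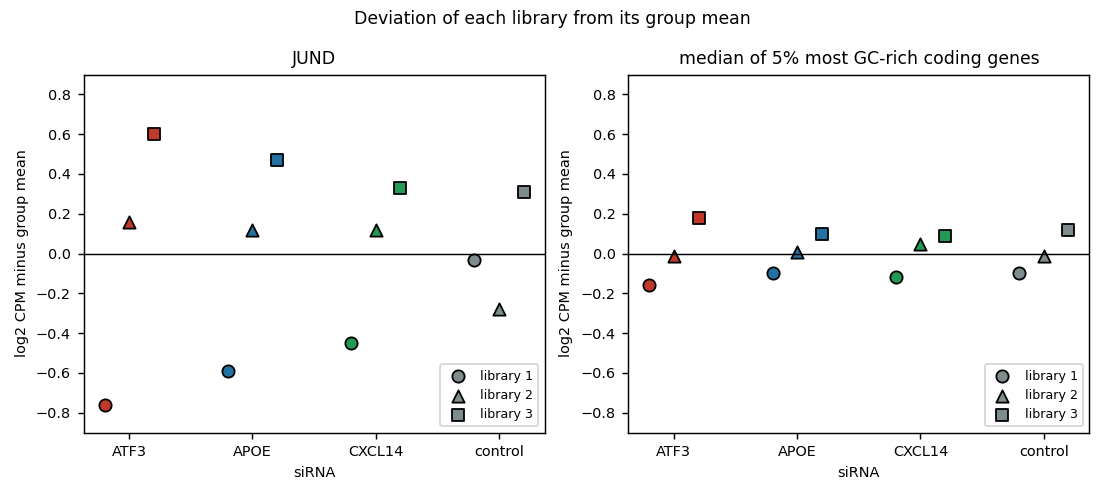
Log2 CPM of each library minus the mean of its group, for JUND (left) and for the median of the 5% of coding genes richest in G and C (right), with ATF3, APOE, CXCL14 and control siRNA. Library 3 is highest in every group in both panels, at 0.60 for JUND and 0.18 for the GC-rich genes with ATF3 siRNA.

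Of the FOS family, FOS (ENSG00000170345, chr14:75278774-75282230, plus strand), the classical immediate early partner of JUN, was low in all groups and went in opposite directions with ATF3 and CXCL14 siRNA. It had 16.7, 17.6 and 20.1 CPM with ATF3 siRNA and 7.33, 6.43 and 6.37 CPM with CXCL14 siRNA, against 11.2, 12.3 and 11.9 CPM with control siRNA. The 3 groups do not overlap. FOS rose 1.53-fold with ATF3 siRNA (0.62 ± 0.12, edgeR adjusted p = 0.00224) and fell to 56.8% of the control level with CXCL14 siRNA (-0.82 ± 0.13, adjusted p = 6.81e-05). With APOE siRNA it had 15.8, 11.9 and 16.5 CPM, and library 2 lies within the control range. That rise of 0.32 ± 0.13 passed narrowly (adjusted p = 0.049, 0.00732 to 0.201 over the alternatives) and was held by 3 of 16 alternatives. Among others, it was lost without any single control library or without APOE siRNA library 1 or 3 (adjusted p = 0.141, 0.0721 and 0.105 without control library 1, 2 and 3, and 0.158 and 0.201 without APOE siRNA library 1 and 3).

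FOSB (ENSG00000125740, chr19:45467995-45475179, plus strand), an immediate early relative of FOS, had 25 to 110 counts per library. It had 5.80, 4.82 and 4.91 CPM with APOE siRNA, against 2.18, 2.43 and 3.28 CPM with control siRNA. The groups do not overlap, and FOSB rose 1.97-fold (0.98 ± 0.18, adjusted p = 0.00038). With ATF3 siRNA it had 1.98, 1.74 and 1.51 CPM, all below the control libraries, and the difference of -0.58 (95% interval -1.01 to -0.14) missed the threshold (adjusted p = 0.057, 0.0409 to 0.224 over the alternatives, of which 3 of 16 called it). With CXCL14 siRNA it had 2.95, 3.05 and 2.85 CPM and did not pass (0.17, 95% interval -0.24 to 0.57, adjusted p = 0.483). ERCC1 overlaps FOSB on the opposite strand with 34.4 times as many counts, so single values of FOSB are uncertain. ERCC1 stood at -0.15 ± 0.06 with APOE siRNA (adjusted p = 0.0545), the other sign from FOSB.

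FOSL1 (ENSG00000175592, chr11:65892049-65900573, minus strand) encodes FRA-1, a FOS protein that lacks the activation domain of FOS and is abundant in migrating keratinocytes. It had 136, 119 and 137 CPM with ATF3 siRNA, 92.2, 102 and 105 CPM with APOE siRNA, and 63.4, 69.7 and 73.6 CPM with CXCL14 siRNA, against 163, 155 and 161 CPM with control siRNA. The 4 groups do not overlap. FOSL1 fell to 81.7% of the control level with ATF3 siRNA (-0.29 ± 0.07, adjusted p = 0.0117), to 62.6% with APOE siRNA (-0.68 ± 0.08, 2.33e-06) and to 43.2% with CXCL14 siRNA (-1.21 ± 0.08, 1.56e-09). The first of these was lost without ATF3 siRNA library 2 (adjusted p = 0.0635, 0.00164 to 0.0635 over the alternatives). The groups also differed from each other: FOSL1 was higher with ATF3 than with APOE siRNA (0.38 ± 0.08, adjusted p = 0.000701) and higher with APOE than with CXCL14 siRNA (0.54 ± 0.08, 1.65e-05).

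FOSL2 (ENSG00000075426, chr2:28392448-28417312, plus strand) encodes FRA-2, the FOS protein linked to keratinocyte differentiation. It had 324, 317 and 385 CPM with ATF3 siRNA, 353, 332 and 339 CPM with APOE siRNA, and 353, 353 and 344 CPM with CXCL14 siRNA, against 270.0, 293 and 302 CPM with control siRNA. Every library with a targeting siRNA stood above the control libraries, by a small margin. The rise was 0.25 ± 0.07 with ATF3 siRNA (adjusted p = 0.024), 0.25 ± 0.07 with APOE siRNA (0.0113) and 0.28 ± 0.07 with CXCL14 siRNA (0.0035). With ATF3 siRNA it was lost without control library 1 or 2 (adjusted p = 0.108 and 0.0611) without ATF3 siRNA library 3 (0.109) and in a fit of only the groups compared (0.0708), in a range of 0.00788 to 0.109. With APOE siRNA it was lost without control library 1 (0.0575, in a range of 0.00359 to 0.0575). No pair of targeting siRNAs differed in FOSL2 beyond the threshold, with differences of 0.00 (95% interval -0.15 to 0.16) for ATF3 over APOE siRNA and -0.03 (-0.19 to 0.12) for ATF3 over CXCL14 siRNA.

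MAFF (ENSG00000185022, chr22:38200767-38216511, plus strand) is a small MAF protein with no activation domain of its own. It had 62.5, 67.5 and 71.1 CPM with ATF3 siRNA and 43.9, 49.9 and 49.7 CPM with CXCL14 siRNA, against 54.2, 56.9 and 58.1 CPM with control siRNA. The 3 groups do not overlap, and MAFF rose by 0.25 ± 0.08 with ATF3 siRNA (adjusted p = 0.031) and fell by 0.24 on the log2 scale with CXCL14 siRNA (-0.24 ± 0.08, 0.0156). The rise was lost without control library 1, 2 or 3 (adjusted p = 0.117, 0.0793 and 0.053), without ATF3 siRNA library 2 or 3 (0.0805 and 0.106), with library size alone (0.0535) and with no filter (0.0652), in a range of 0.00307 to 0.117, and was called by 9 of 16 alternatives. The fall was lost without CXCL14 siRNA library 1 (0.0782) and with library size alone (0.0513, in a range of 0.0015 to 0.0782). The direct difference, ATF3 over CXCL14 siRNA, was 0.49 ± 0.08 (adjusted p = 5.27e-05) and passed under all 16 alternatives. With APOE siRNA MAFF had 49.0, 56.8 and 54.2 CPM and overlapped the control (-0.08, 95% interval -0.24 to 0.08, adjusted p = 0.423). PLA2G6, which overlaps MAFF on the opposite strand with 10.38% as many counts, rose with ATF3 siRNA (0.63 ± 0.16, adjusted p = 0.0107) and with CXCL14 siRNA (1.28 ± 0.15, 2.56e-06), where MAFF fell.

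The targeting siRNAs were also compared with each other, which tests whether their effects differ. Between ATF3 and CXCL14 siRNA 7 of the 10 genes passed and 7 did not overlap, where 53.7% of all tested genes passed and 58.4% did not overlap. JUNB was 2.51-fold higher (1.33 ± 0.09, edgeR adjusted p = 3.50e-09), FOS 2.7-fold higher (1.43 ± 0.13, 1.00e-07) and FOSL1 1.89-fold higher (0.92 ± 0.08, 4.12e-08) with ATF3 siRNA than with CXCL14 siRNA. Between APOE and CXCL14 siRNA 7 passed and 7 did not overlap, where 55.5% of all tested genes passed and 61.8% did not overlap, and JUNB was 3.13-fold higher with APOE siRNA (1.65 ± 0.09, adjusted p = 2.76e-10). There, where same-numbered libraries deviated together, a replicate block also called JUND (-0.37, adjusted p = 0.0344) and MAFF (0.16, 0.0243). Between ATF3 and APOE siRNA 6 passed and 8 did not overlap, where 38.2% of all tested genes passed and 46.9% did not overlap. JUN was 1.56-fold lower (-0.64 ± 0.08, adjusted p = 5.49e-06) and FOSB 2.94-fold lower (-1.56 ± 0.19, 7.31e-06) with ATF3 siRNA than with APOE siRNA.

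Levels of different genes were set side by side per transcript length, as the deposited FPKM. In control libraries JUNB stood highest at 165 to 184 FPKM, ahead of FOSL1 at 83.5 ± 2.05, JUND at 68.5 ± 14.0, JUN at 60.1 ± 4.08 and FOSL2 at 39.7 ± 2.11 FPKM (± SD, n = 3). ATF3 followed at 10.3 ± 0.406 and MAFF at 9.91 ± 0.313 FPKM, then ATF2 at 4.38 ± 0.319, FOS at 3.60 ± 0.176 and FOSB at 0.467 ± 0.101 FPKM. Ranges of neighbours overlapped for FOSL1 and JUND, for JUND and JUN, and for ATF3 and MAFF, so those pairs do not differ beyond their spread.

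With ATF3 siRNA, ATF3 stood at 2.92 ± 0.127 FPKM, below FOS at 5.50 ± 0.533 FPKM, and the ranges do not overlap; in control libraries the order of ATF3 and FOS was the opposite. With CXCL14 siRNA, JUNB stood at 71.1 ± 1.78 FPKM, and its range overlapped that of JUND at 63.5 ± 16.5 FPKM. FOSL2 at 48.3 ± 0.647 FPKM was above FOSL1 at 36.1 ± 2.67 FPKM with CXCL14 siRNA, again the opposite of the control. With APOE siRNA, JUN at 86.5 ± 2.51 FPKM was above FOSL1 at 51.8 ± 3.43 FPKM. These levels are descriptions without a test between genes.

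The makeup of each family was described by the share of its summed FPKM. JUNB made up 63.1% ± 2.58 of JUN, JUNB and JUND together with ATF3 siRNA, 61.9% ± 2.23 with APOE siRNA and 36.4% ± 3.28 with CXCL14 siRNA, against 57.8% ± 2.28 with control siRNA (SD, n = 3). The highest share of JUNB with CXCL14 siRNA, 40.1%, was below its lowest with control siRNA, 55.7%, and in CXCL14 siRNA library 3 JUND had the larger share, 36.1% against 33.8% for JUNB. FOSL1 made up 56.3% ± 2.05 of the FOS family with ATF3 siRNA, 49.9% ± 2.59 with APOE siRNA and 41.5% ± 2.16 with CXCL14 siRNA, against 65.6% ± 1.64 with control siRNA. FOSL2 held most of the rest, at 38.9% ± 1.81 with ATF3 siRNA, 45% ± 2.15 with APOE siRNA and 55.6% ± 1.91 with CXCL14 siRNA, against 31.2% ± 1.47 with control siRNA. FOS and FOSB together stayed a small part, with FOS at 4.57% ± 0.317 with ATF3 siRNA and 2.36% ± 0.245 with CXCL14 siRNA, against 2.83% ± 0.150 with control siRNA. The sum of the FOS family over that of the JUN family was 0.434 ± 0.0715 with ATF3 siRNA, 0.293 ± 0.0221 with APOE siRNA and 0.445 ± 0.0406 with CXCL14 siRNA, against 0.419 ± 0.0257 with control siRNA. The APOE siRNA ratios, 0.270 to 0.314, lie below those of the other groups. Shares that include JUND carry its spread between libraries.

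**Figure D4:**
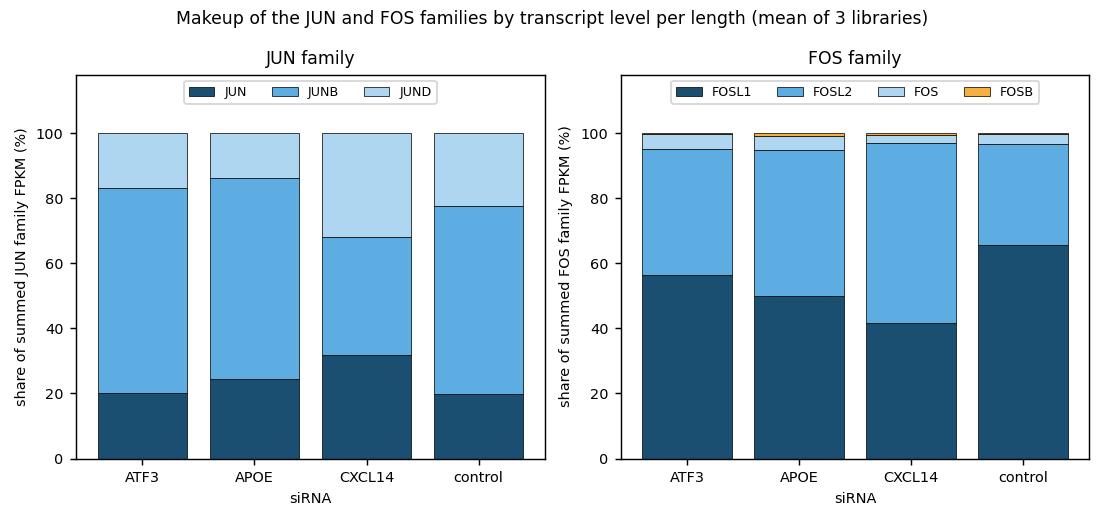
Share of each gene in the summed FPKM of the JUN family (left) and of the FOS family (right) with ATF3, APOE, CXCL14 and control siRNA, as means of 3 libraries. JUNB holds 36.4% of the JUN family with CXCL14 siRNA against 57.8% with control siRNA, and FOSL2 holds 55.6% of the FOS family with CXCL14 siRNA against 31.2% with control siRNA.

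Other basic leucine zipper genes, which pair with the same proteins or share their elements, changed in both directions. Of 27 tested, 7 rose and 4 fell with ATF3 siRNA (median 0.10), 11 rose and 8 fell with APOE siRNA (median 0.07), and 9 rose and 6 fell with CXCL14 siRNA (median 0.07), where all tested genes had medians of 0.00 to 0.01. The 4 falls with ATF3 siRNA were 2 without control library 1 or 2 or without ATF3 siRNA library 2 or 3. Among all tested genes 11.2% rose and 9.14% fell with ATF3 siRNA, 22.3% rose and 22.5% fell with APOE siRNA, and 27.4% rose and 28.4% fell with CXCL14 siRNA. With ATF3 siRNA, DDIT3, or CHOP, a stress factor that pairs with C/EBP proteins, rose to 15.0 ± 1.54 CPM against 7.77 ± 1.24 CPM (0.95 ± 0.13, edgeR adjusted p = 8.16e-05). ATF1 (0.61 ± 0.10) and ATF5 (0.28 ± 0.06) rose, and ATF7, a close relative of ATF2, fell (-0.73 ± 0.11). CREB3L2 (-0.40 ± 0.08) and CREB1 (-0.27 ± 0.08) fell as well.

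In the same list, the large MAF factor MAF, known to drive keratinocyte differentiation, rose to 19.0 ± 2.74 CPM with APOE siRNA against 5.11 ± 0.621 CPM with control siRNA (1.89 ± 0.17, adjusted p = 2.91e-07). DDIT3 rose there too (1.24 ± 0.13), and CREB3 (-1.09 ± 0.07), CREB3L2 (-1.02 ± 0.08) and CREM (-0.74 ± 0.12) fell. With CXCL14 siRNA, ATF5 (0.49 ± 0.06) and the small MAF gene MAFK (0.41 ± 0.07) rose, and CREB1 (-0.93 ± 0.08), ATF1 (-0.97 ± 0.11) and CREB3L2 (-0.59 ± 0.08) fell. ATF1 was thus called in opposite directions with ATF3 siRNA and CXCL14 siRNA.

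Other immediate early genes, which are switched on by the same signals as FOS, changed in both directions. Of 20 tested, 5 rose and 1 fell with ATF3 siRNA (median 0.04), 9 rose and 2 fell with APOE siRNA (median 0.20), and 8 rose and 5 fell with CXCL14 siRNA (median 0.09), where FOS fell. Of all tested genes 11.2% rose and 9.14% fell with ATF3 siRNA, and 22.3% rose and 22.5% fell with APOE siRNA. With CXCL14 siRNA 27.4% of all tested genes rose and 28.4% fell. The 5 rises with ATF3 siRNA were 3 without control library 1 or 2 or ATF3 siRNA library 2, and the 9 with APOE siRNA were 5 without APOE siRNA library 3. The single fall with ATF3 siRNA was joined by another without ATF3 siRNA library 3. GADD45B, a stress response gene, rose with all 3 siRNAs, by 0.60 ± 0.08 with ATF3, 0.51 ± 0.08 with APOE and 0.90 ± 0.08 with CXCL14 siRNA. EGR1, a zinc finger factor induced with FOS, had 101 ± 12.9 CPM with APOE siRNA and 25.3 ± 1.13 CPM with CXCL14 siRNA, against 63.7 ± 6.64 CPM with control siRNA. It rose with APOE siRNA (0.66 ± 0.11, edgeR adjusted p = 0.000159) and fell with CXCL14 siRNA (-1.33 ± 0.12, 8.87e-08), the directions called for FOS. KLF4 also rose with all 3 siRNAs, by 0.38 ± 0.09 with ATF3, 0.40 ± 0.09 with APOE and 0.54 ± 0.09 with CXCL14 siRNA. EGR3, at 0.549 ± 0.264 CPM with control siRNA, rose with ATF3 siRNA (1.49 ± 0.39) and APOE siRNA (2.10 ± 0.37). The kinase gene SGK1 fell with ATF3 siRNA (-0.64 ± 0.08). With APOE siRNA BTG2 (0.59 ± 0.07) rose, and KLF6 (-0.62 ± 0.06) and PHLDA1 (-0.58 ± 0.07) fell. With CXCL14 siRNA, CCN1, a matrix protein and YAP target, rose to 756 ± 64.6 CPM against 247 ± 6.09 CPM (1.61 ± 0.08, adjusted p = 1.54e-10), SGK1 rose (0.90 ± 0.07), and KLF10 (-0.89 ± 0.06) and PHLDA1 (-0.88 ± 0.07) fell.

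Among 25 genes that act upstream of AP-1, namely MAP kinases, serum response factor partners and the ligases that degrade JUN proteins, more genes fell than rose. With ATF3 siRNA 2 rose and 9 fell (median -0.18), with APOE siRNA 5 rose and 9 fell (median -0.13), and with CXCL14 siRNA 6 rose and 11 fell (median -0.02). Of all tested genes 11.2% rose and 9.14% fell with ATF3 siRNA, 22.3% rose and 22.5% fell with APOE siRNA, and the CXCL14 siRNA shares were 27.4% risen and 28.4% fallen. The 2 rises with ATF3 siRNA were 1 without control library 3 or ATF3 siRNA library 1 or 2, and the 5 with APOE siRNA were 3 without APOE siRNA library 3. With ATF3 siRNA, MAPK14, which encodes p38 alpha, fell to 65.4 ± 1.38 CPM against 100.4 ± 3.87 CPM (-0.62 ± 0.06, edgeR adjusted p = 4.75e-06). The JNK and p38 kinase MAP2K4 (-0.57 ± 0.09) and the serum response factor partner MRTFA (-0.38 ± 0.07) fell too, and MAPK3, or ERK1, rose (0.44 ± 0.08). MRTFA rose in both other groups, with APOE siRNA (0.46 ± 0.06) as with CXCL14 siRNA (0.46 ± 0.06). ELK3, a ternary complex factor that can repress, fell with ATF3 siRNA (-0.28 ± 0.06), APOE siRNA (-0.99 ± 0.06) and CXCL14 siRNA (-1.44 ± 0.06). With CXCL14 siRNA, RPS6KA3, which encodes the kinase RSK2, fell to 16.7 ± 2.65 CPM against 65.3 ± 5.31 CPM with control siRNA (-1.97 ± 0.11, adjusted p = 3.06e-10). With APOE siRNA, MAPK9, or JNK2 (-0.57 ± 0.08), and ITCH, a ligase of JUN proteins (-0.47 ± 0.08), fell, and MAP2K7, a JNK kinase, rose (0.31 ± 0.08).

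Genes known as AP-1 targets in keratinocytes and other epithelia differed sharply between the siRNAs. Of 31 tested, 13 rose and 6 fell with ATF3 siRNA (median 0.36), 11 rose and 13 fell with APOE siRNA (median -0.27), and 4 rose and 21 fell with CXCL14 siRNA (median -0.93), where all tested genes had medians of 0.00 to 0.01. The shares of all tested genes were 11.2% risen and 9.14% fallen with ATF3 siRNA, and 22.3% and 22.5% with APOE siRNA. With CXCL14 siRNA they were 27.4% and 28.4%. The list was chosen with earlier results of these data known. In the direct comparisons 25 were higher and 3 lower with ATF3 siRNA than with CXCL14 siRNA (28.4% and 25.3% of all tested genes), 17 were higher and 7 lower with ATF3 than with APOE siRNA (20.3% and 17.9%), and 21 were higher and 4 lower with APOE than with CXCL14 siRNA (28.9% and 26.6%). The list mixes genes of the matrix and of differentiation, and these parted. Involucrin (IVL) rose with ATF3 siRNA (1.77 ± 0.11) and APOE siRNA (1.45 ± 0.11) and fell with CXCL14 siRNA (-1.08 ± 0.12, edgeR adjusted p = 1.58e-06). KRT16, a keratin of stressed epidermis, rose with ATF3 siRNA (1.64 ± 0.12) and APOE siRNA (2.16 ± 0.13) and fell with CXCL14 siRNA (-1.01 ± 0.12). SPRR1A and SPRR1B, envelope proteins, rose with ATF3 siRNA (2.04 ± 0.17 and 1.69 ± 0.15) and APOE siRNA (2.61 ± 0.16 and 2.25 ± 0.15). With CXCL14 siRNA SPRR1B fell (-0.91 ± 0.16), while SPRR1A, at 5.16 ± 1.06 CPM against 4.48 ± 0.683 CPM with control siRNA, did not pass. SPRR2A (-1.58 ± 0.15) and KRT6A (-0.91 ± 0.06) fell there as well, and TGM1, SPRR3 and KRT17 did not pass. SPRR and keratin genes have near relatives, and how shared reads were assigned bears on each value.

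Among the protease genes, MMP9, or gelatinase B, had 37.5 ± 5.60 CPM with ATF3 siRNA, 4.71 ± 0.737 CPM with APOE siRNA and 0.206 ± 0.0649 CPM with CXCL14 siRNA, against 10 ± 0.0677 CPM with control siRNA. It rose with ATF3 siRNA (1.91 ± 0.12, adjusted p = 4.36e-08) and fell with APOE siRNA (-1.09 ± 0.14, 1.35e-05) and CXCL14 siRNA (-5.58 ± 0.24, 2.98e-11), where it was close to the limit of 3 counts. PLAU, the urokinase, fell to 59.2 ± 3.21 CPM with CXCL14 siRNA against 379.6 ± 68.8 CPM with control siRNA (-2.68 ± 0.11, adjusted p = 1.59e-11). PLAUR, the urokinase receptor, fell with APOE siRNA (-0.73 ± 0.07) and CXCL14 siRNA (-1.20 ± 0.07). ITGA2, a collagen receptor chain, fell with ATF3 siRNA (-0.67 ± 0.11), APOE siRNA (-1.31 ± 0.12) and CXCL14 siRNA (-1.06 ± 0.11). Vimentin (VIM) fell with ATF3 siRNA (-0.83 ± 0.10) and APOE siRNA (-0.40 ± 0.10) and rose with CXCL14 siRNA (0.49 ± 0.10), and HMOX1, heme oxygenase 1, rose with CXCL14 siRNA (0.77 ± 0.14). The CXCL14 siRNA group is also the group with the lowest JUNB, FOS and FOSL1. It has the highest ATF3 and ATF2 as well, at 68.3 and 42.9 CPM. A link between any of these levels and those of the targets was not tested.

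**Figure D5:**
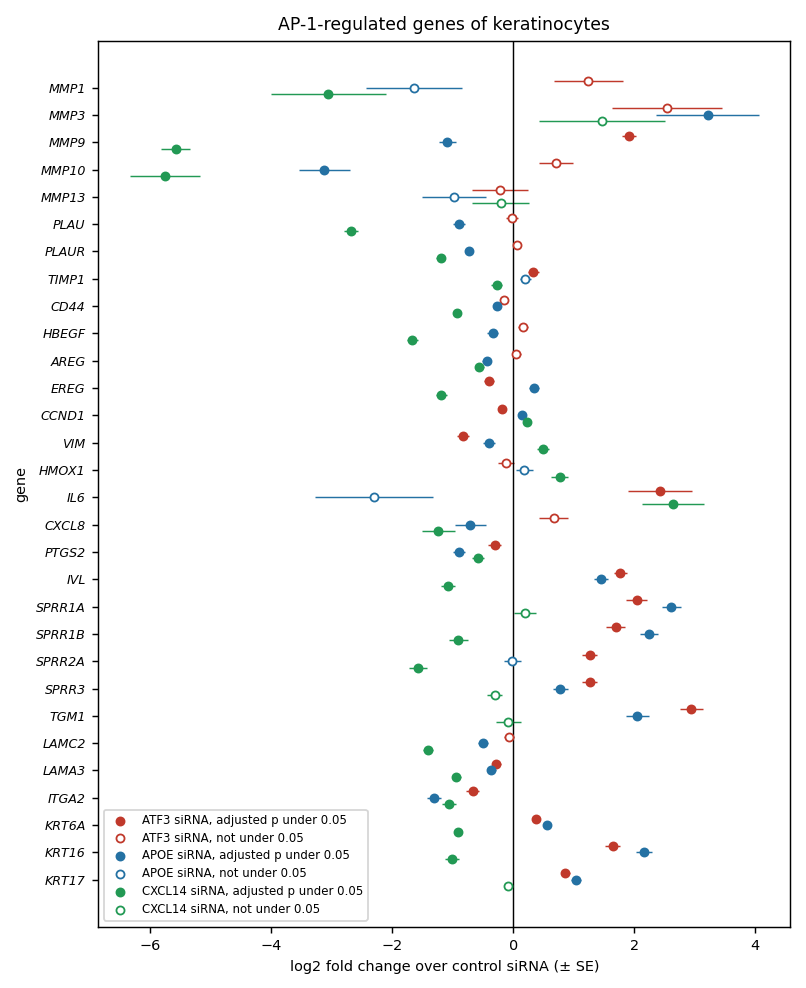
Log2 fold change over control siRNA (± SE, edgeR, n = 3 libraries per group) of 30 of the 31 tested genes known as AP-1 targets, with ATF3, APOE and CXCL14 siRNA. Filled points have an adjusted p under 0.05. With CXCL14 siRNA 20 of the 30 lie below 0 and pass, where 28.4% of all tested genes did so. IVL, MMP9 and KRT16 lie above 0 with ATF3 siRNA.

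The genes whose profile over the 4 groups was nearest were sought for ATF3 and for the genes called in at least 2 of the comparisons with the control. The measure was the Euclidean distance between centred mean log2 CPM, over 10160 coding genes averaging 5 CPM or more. No gene came close to ATF3: WBP1L was nearest at 0.722, ahead of RNF44 at 0.755 and FZD5 at 0.774, beside a length of 1.85 for the profile of ATF3 itself. That profile is largely set by the siRNA against ATF3, with -1.52 in the ATF3 siRNA group. The lack of a near gene therefore says little about ATF3. Nearest to FOS was ERRFI1, a feedback inhibitor of the EGF receptor, at 0.0483 (profile length 1.06), with mean levels of 229 CPM with ATF3 siRNA, 191 CPM with APOE siRNA and 86.2 CPM with CXCL14 siRNA, against 155 CPM with control siRNA. PROM2 at 0.101 and C1orf74 at 0.152 followed. Nearest to JUNB (length 1.26) were PCLAF at 0.0485, NECTIN1 at 0.0722 and UBXN2A at 0.0811, and nearest to FOSL1 (length 0.908) were PER3 at 0.0533, IL18R1 at 0.0748 and U2SURP at 0.0803. Nearest to ATF2 (length 0.543) were RDH13, ATP5MC2 and CTH, at 0.0246 to 0.0677. Those nearest to FOSL2 (length 0.225) were KDELR1, WDR25 and NCLN, at 0.0117 to 0.0174, and those nearest to MAFF (length 0.352) were NIPAL2, MRPL20 and GNL3, at 0.0391 to 0.0537. The short profiles of ATF2, FOSL2 and MAFF leave many genes within a small distance, and 4 groups are few points for such a measure.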

How the data were processed

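Raw counts per gene and FPKM per gene and library were deposited by the authors. Per the submitters' processing notes, build hg38 was used with HISAT2 2.0.5 and featureCounts 1.5.0-p3; the annotation and strand setting are not given in the sources used here. The deposited FPKM were each count divided by the length of the gene and by a depth that follows DESeq2 size factors, as checked on the values. Gene IDs and coordinates equal those of GENCODE 29. Columns were matched to samples by target and replicate number.

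Counts were filtered with filterByExpr, which kept 14920 genes and 99.9% of counts, scaled by TMM, and fitted by quasi-likelihood in edgeR 4.0.16 (R 4.3.3) with all 12 libraries and 1 term per group. P-values were adjusted by Benjamini-Hochberg over all tested genes of each of the 6 comparisons. The script was tested on simulated counts. Alternatives were scaling by library size alone or by DESeq2 size factors, dropping the filter or tightening it (1 CPM or more in 3 libraries and 50 counts on average), DESeq2 1.42.0, limma-voom and limma on log2(FPKM + 1) or log2(FPKM + 0.1) (limma 3.58.1), a replicate block, only the groups compared, and leaving out each library: 16 per comparison. Profiles were of log2 CPM (prior count 2), and G and C shares came from GENCODE 29 transcripts.

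The 10 genes are named in every comparison, and of each of the 4 gene lists up to 3 called genes per direction and comparison with the smallest adjusted p; the text gives most of these, and some are not reported here. Some genes named in one comparison, such as IVL and VIM, are also given in others where they were not among those 3. For APOE over CXCL14 siRNA all 3 same-number pairs had correlated deviations (0.104 to 0.234), so the block is given beside that comparison where it changes a call. Genes and lists were chosen with earlier results of these data known.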

Additional observations from a re-analysis of the deposited data

Results flagged for a closer look

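In 5 cases a gene was called in opposite directions with 2 of the targeting siRNAs over the control, and the direct comparison of the siRNAs passed as well. ATF3 fell with ATF3 siRNA and rose with CXCL14 siRNA, with a direct difference of -2.51 ± 0.08 (edgeR adjusted p = 2.01e-12), in part set by the siRNA against ATF3 itself. FOS rose with ATF3 siRNA and fell with CXCL14 siRNA, with a direct difference of 1.43 ± 0.13 (adjusted p = 1.00e-07). MAFF did the same at a smaller size, with a direct difference of 0.49 ± 0.08 (adjusted p = 5.27e-05). JUNB rose with APOE siRNA and fell with CXCL14 siRNA, with a direct difference of 1.65 ± 0.09 (adjusted p = 2.76e-10). FOS also differed between APOE and CXCL14 siRNA, by 1.13 ± 0.13 (adjusted p = 1.55e-06), although its rise with APOE siRNA was held by 3 of 16 alternatives.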

How the results depend on the processing

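Called changes of ATF3, ATF2 and FOS with ATF3 siRNA, of ATF2, JUN, JUNB, FOSB and FOSL1 with APOE siRNA, and of ATF3, ATF2, JUNB, FOS, FOSL1 and FOSL2 with CXCL14 siRNA kept their direction and their call under all 16 alternatives. Leaving out a library, 4 to 6 of the 10 genes passed with ATF3 siRNA, 5 to 7 with APOE siRNA and 6 to 7 with CXCL14 siRNA, and 1916 to 2729 of all tested genes with ATF3 siRNA, with 1916 without control library 1; the cause was not tested. Signs that turned belong to differences that lay between -0.11 and 0.04 in the main fit and passed in neither setting. After turning, those of JUND reached 0.29, beside its wide spread between libraries. JUNB, ATF3 siRNA over control, was -0.02 with library size alone, -0.03 without control library 1 and -0.08 without ATF3 siRNA library 3 (-0.08 to 0.11 over libraries left out). ATF3, APOE siRNA over control, was 0.00 to 0.04 without control library 1 or 2 or APOE siRNA library 2 (-0.06 to 0.04 over libraries left out). With CXCL14 siRNA over control, JUN was -0.02 without control library 1 (-0.02 to 0.09), and JUND was 0.06 without control library 3 and 0.08 without CXCL14 siRNA library 1 (-0.29 to 0.08 over libraries left out). For ATF3 over APOE siRNA, JUND was 0.01 with library size alone and 0.02, 0.24 and 0.29 without APOE siRNA library 2 or 3 or ATF3 siRNA library 1 (-0.34 to 0.29 over libraries left out), and FOSL2 was -0.01 with the stricter filter, -0.00 with limma-voom and -0.02, -0.00 and -0.09 without APOE siRNA library 2 or 3 or ATF3 siRNA library 3 (-0.09 to 0.05). FOSL2, ATF3 over CXCL14 siRNA, was 0.02 without ATF3 siRNA library 2 (-0.12 to 0.02). Library size alone moved the median of all genes to -0.105 for ATF3 over CXCL14 siRNA and -0.114 for APOE over CXCL14 siRNA, and the share of called genes that were higher was 44% in place of 55.2% for ATF3 siRNA over control, 41.5% in place of 52.9% for ATF3 over CXCL14 siRNA, and 39.6% in place of 52% for APOE over CXCL14 siRNA. The no-filter fit called JUND with ATF3 siRNA (4.41e-08) and APOE siRNA (1.56e-08) and for ATF3 (3.06e-05) and APOE (3.66e-05) over CXCL14 siRNA; the cause was not tested.

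Libraries of equal replicate number tended to deviate together, though not in every pair, and the main fit has no term for the number. The correlation of deviations was over 0.1 in 11 of 18 same-number pairs (-0.021 to 0.234). It was over 0.1 in 0 of 36 others, of which 26 were below 0. In 27 of 36 searches a library was nearest to its own number in the other group. All 3 pairs were over 0.1 for APOE over CXCL14 siRNA only. With a replicate block 7, 8 and 7 of the 10 genes passed with ATF3, APOE and CXCL14 siRNA over control and 4138, 7436 and 8970 of all genes; JUND was then called with ATF3 siRNA (-0.55, adjusted p = 0.00815), with APOE siRNA (-0.52, 0.00595), for ATF3 over CXCL14 siRNA (-0.40, 0.0227) and for APOE over CXCL14 siRNA (-0.37, 0.0344). Other calls gained were FOS for ATF3 over APOE siRNA (0.0375), JUN for ATF3 over CXCL14 siRNA (0.0305) and MAFF for APOE over CXCL14 siRNA (0.0243), and FOSL2, ATF3 over APOE siRNA, was -0.00. With the block, the rises among other basic leucine zipper genes with ATF3 siRNA were 11 in place of 7, and those among upstream genes with APOE siRNA 8 in place of 5.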
